A study of Mus musculus with 2 samples.

Results

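The 10 genes described here belong to the hedgehog and BMP pathways of the colon: the hedgehog ligand Ihh, the hedgehog receptors and targets Ptch1 and Hhip, the transcription factor Gli1, the BMP ligands Bmp2 and Bmp4, and the 4 Id genes. They were taken from 22905 genes named on the array, as signals of crypt differentiation, by matching the RefSeq accession of each gene probe to the symbol. They had 13 probes, each spotted once. RNA of whole colon was measured in 2 groups of C57BL/6 mice, stated to be 8 weeks old: Villin-Cre controls, which carry Cre recombinase under the villin promoter of the intestinal epithelium, and Villin-Cre; EP4flox/flox mice (EP4 cKO), which carry the same transgene and in which it cuts the floxed gene of EP4, a prostaglandin E2 receptor (Ptger4), in that epithelium. Each group was 1 Agilent array of 1 colour (Cy3), with RNA combined from 3 pools of colon, and both arrays were on the same slide. With 1 array per group there is no spread between mice, no test was possible and no p-value is given. Each value describes these arrays, and position on the slide and genotype cannot be told apart.

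Hedgehog ligands leave the epithelium and act on cells of the stroma, where Smo signaling through Gli factors switches on Ptch1, Gli1, Hhip and, in the gut, BMP ligands. BMPs act back on the epithelium through Smad proteins, hold down stem cell division and favor differentiation toward the surface of the crypt. Id proteins are classic BMP targets: they lack a DNA-binding domain and block bHLH transcription factors by pairing with their E protein partners.

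Signals are intensities scaled so that the trimmed mean of each array was 2500, and the log2 ratio is EP4 cKO over Villin-Cre. A probe counts as measured where the scanner software marked it well above background. The dimmest such probe had a scaled signal of 125 (Villin-Cre) and 57.8 (EP4 cKO), and the median of 308 negative control spots was 29.9 and 13.5. Where a probe was measured on 1 array only, its signal on the other was set to no less than that floor, so that its fold is a bound. The floors differ by more than 2-fold. A probe measured on the Villin-Cre array only is therefore more than 2-fold lower wherever its EP4 cKO signal lies at or below the floor there. A probe measured on the EP4 cKO array only gives no fold above 1 where its signal lies below the Villin-Cre floor. The error printed after a ratio is the one the scanner software gives for single spots and does not cover differences between mice. Ptger4, the targeted gene, had scaled signals of 6227 (Villin-Cre) and 5661 (EP4 cKO) with its brighter probe, and 393 and 592 with its dimmer one. The targeted gene was therefore not clearly lower in the library labelled EP4 cKO. The paper reports the deletion by qRT-PCR in isolated colon crypts, and names lamina propria cells as another site of EP4. The arrays held RNA of whole colon, and the part of other cells in the Ptger4 signal was not tested. Where its probes lie relative to the deleted part is not given in the sources used here, and all directions given here follow the labels.

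The colon labels were set against marker genes. All 12 epithelial markers were measured on both arrays, and their median log2 ratio was 0.21. Other cells of a whole colon were seen in part. Of 10 smooth muscle markers 6 were measured on both arrays (Acta2, Actg2, Tagln, Mylk, Smtn and Cnn1), Des on the EP4 cKO array only, and Myh11, Lmod1 and Synpo2 on neither. Of 10 endothelial markers 3 were measured on both (Vwf, Egfl7 and Pecam1), and Cdh5 and Kdr were among the 7 measured on neither. That these defining markers of muscle and vessels were not well above background goes against the label of whole colon, while the other markers of the same lists do not. This does not show that they were absent. Myh11 had 99.5 on the Villin-Cre array, where the 95th percentile of the negative control spots was 74.3. In the fibroblast list 8 of 10 markers had a value and 6 were lower with EP4 cKO by more than 2-fold. Of the 6, Fbln1 (log2 ratio -1.09) was within 2-fold when the arrays were scaled to their 75th percentile instead (-0.93). The summed signal of the list was 15887 for Villin-Cre against 4358. Dcn, a matrix proteoglycan, had 6006 and 110, and Col1a2, a collagen chain, had 3613 and 111. The other 2 went the opposite way, within 2-fold with the scaling used here: Fn1, fibronectin, had 1071 and 2119 (log2 ratio 0.98), and Thy1 had 1505 and 1836 (0.29). With the 75th percentile instead, Fn1 was past 2-fold (1.14). In bulk RNA, fewer cells of a type and less RNA per cell cannot be told apart.

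Of the 10 members, 5 (Ihh, Bmp2, Id1, Id2 and Id3) were measured on both arrays, Id4 and Bmp4 on the EP4 cKO array only and Ptch1 on the Villin-Cre array only, while Gli1 and Hhip were measured on neither. Ihh, Bmp2 and Id1 to Id3 were thus readily seen, and the stromal targets of hedgehog lay at or near background. By the brightest probe with a value, 1 member (Id4) was more than 2-fold higher on the EP4 cKO array and 1 (Ptch1) more than 2-fold lower, both as bounds, beside 4.89% and 7.98% of the 14676 genes with a value. Since Id4, Bmp4 and Ptch1 had a value through 1 array alone, these counts carry no weight of their own. The median log2 ratio over the 8 members with a value was 0.24, against -0.10 over all genes with a value. Over the 5 members measured on both arrays it was 0.26, against -0.15 over 12805 genes.

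**Figure D1:**
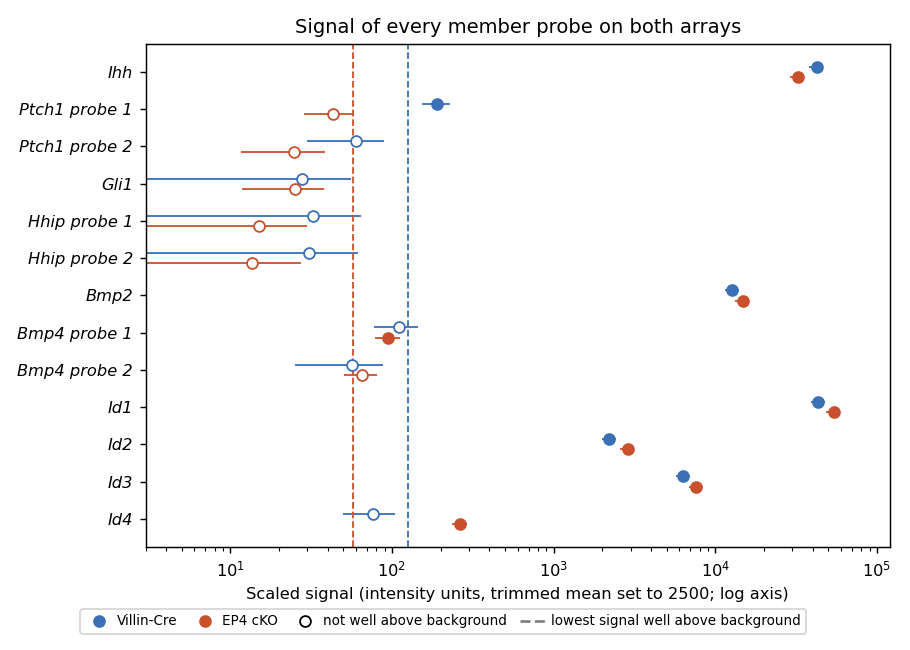
Scaled signal (log axis) of each of the 13 member probes on the Villin-Cre array (blue) and the EP4 cKO array (red). Filled points were well above background, open points were not, bars are the scanner software's error, and dashed lines mark the lowest signal well above background on each array (125 and 57.8). Ihh, Bmp2, Id1, Id2 and Id3 stand far right of both lines, and Gli1 and Hhip stand left of both.

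Ihh, Indian hedgehog, is the hedgehog ligand of differentiated colonic epithelium. Its scaled signal was 42365 in Villin-Cre and 32348 in EP4 cKO. This is a log2 ratio of -0.39 ± 0.20 (scanner software's error), or 1.31-fold lower. Before scaling, the median pixel signal of the spot was 11618 and 11625, so that the lower value rests on the scaling of the arrays. When the arrays were scaled to the E1A control spots, which was tried only once the data had been seen, the ratio was 0.65 and its sign flipped. Among the brightest 1281 genes (signal bin 10 of 10) the median ratio was -0.02 and the lower quartile -0.27, so Ihh lay somewhat outside the interquartile range of those genes.

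Ptch1 encodes the receptor that binds hedgehog and is itself switched on by the pathway. Its brighter probe had 191 in Villin-Cre and 43.1 in EP4 cKO, where it was not well above background, so that it was at least 3.30-fold lower (log2 ratio -1.72 as a bound). The Villin-Cre value was only 1.52 times the floor of that array. The bound was within 2-fold with one floor for both arrays (-0.61), with scaling to the E1A control spots (-0.69) and after normexp with quantile normalization (-0.48). The second probe of Ptch1 had 59.7 and 24.96 and was well above background on neither array. Of the 8 fibroblast markers with a value 6 were more than 2-fold lower on the same array with the scaling used here. Fn1 (0.98) and Thy1 (0.29) had ratios above 0. Scaling to the E1A control spots put Fbln1, among the 6, at -0.06, Fn1 at 2.02 and Thy1 at 1.32. The smooth muscle markers were mixed: Acta2 (0.62, and -0.58 with a dimmer probe), Actg2 (0.72), Tagln (0.38) and Mylk (0.86) were above 0 by the brightest probe, and Smtn (-0.59) and Cnn1 (-2.73) below. The part of these cells in the Ptch1 difference was not tested.

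Gli1, the transcription factor that amplifies the hedgehog signal, had 27.9 and 25.05, beside negative control medians of 29.9 and 13.5. Hhip, the decoy receptor that binds hedgehog at the cell surface, had 32.4 and 15.0 with one probe and 30.6 and 13.7 with the other. None of these probes was well above background, and no fold is given. The negative control spots themselves differed by a log2 ratio of -1.15 between the arrays, which is about the ratio of both Hhip probes (-1.11 and -1.16). Thus the hedgehog response in the stroma could not be measured with these members beyond the single Ptch1 probe.

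Bmp2, a BMP ligand of the surface epithelium, had scaled signals of 12751 in Villin-Cre and 14759 in EP4 cKO. The log2 ratio was 0.21 ± 0.20 (scanner software's error), or 1.16-fold higher. Genes of like signal (bin 8 of 10) had a median of -0.08 and an upper quartile of 0.21, next to the value of Bmp2. Bmp4, the main BMP ligand of the stroma, had 111 and 95.2 with its brighter probe, which was well above background on the EP4 cKO array only and gave no fold above 1. Its dimmer probe had 56.7 and 65.8 and was well above background on neither array. A difference in Bmp4 was not detectable at this signal.

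Id1, Id2 and Id3, the Id genes measured on both arrays, were each less than 2-fold higher on the EP4 cKO array. Id1 had 43376 in Villin-Cre and 53935 in EP4 cKO, a log2 ratio of 0.31 ± 0.20. Id2 had 2207 and 2872, a ratio of 0.38 ± 0.21. Id3 had 6321 and 7592, a ratio of 0.26 ± 0.20. Each of these ratios is under 2 times the scanner software's error, which was close to 10% of the signal for each of these spots. The genes of like signal had medians of -0.02 for Id1, -0.16 for Id2 and -0.11 for Id3, with upper quartiles of 0.30, 0.14 and 0.20, so that Id1 lay at the edge of the interquartile range and Id2 and Id3 above it. The direction was the same in each setting tried, with ratios for Id1, Id2 and Id3 between 0.24 and 1.42. The highest of these came from scaling to the E1A control spots, which raised the median of all genes to 0.87. Most settings could hardly have turned the direction. The filters on dim probes, the mean of all probes and the floor shared by both arrays leave these ratios unchanged (0.31 for Id1). The other scalings raised the median of all genes from -0.10 to 0.00.

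The fourth gene, Id4, was near background. It had 76.7 on the Villin-Cre array, where it was not well above background, and 263 on the EP4 cKO array, which is 4.54 times the floor there. It was at least 2.10-fold higher (log2 ratio 1.07 as a bound), and the bound was within 2-fold after normexp with quantile normalization (0.91). With its own dim signal in place of the floor, the ratio was 1.78 ± 0.54 (scanner software's error). That ratio rests on a Villin-Cre signal that was not well above background, so only the bound can be read.

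**Figure D2:**
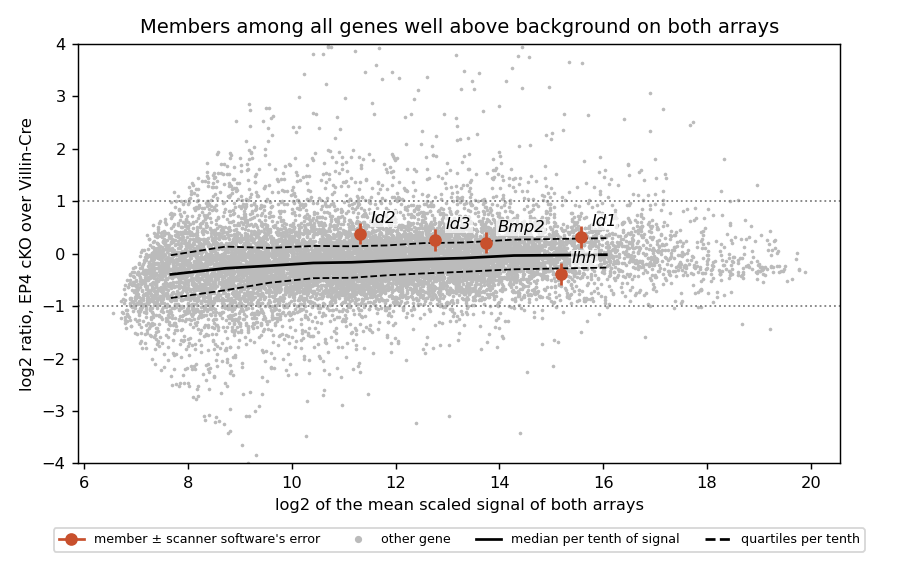
Log2 ratio of EP4 cKO over Villin-Cre against the log2 of the mean scaled signal, for genes well above background on both arrays (grey; 48 genes beyond 4 log2 units are not shown). The 5 members (red, with the scanner software's error) lie within 2-fold, Ihh below the dashed lower quartile line, Id2 and Id3 above the upper one and Id1 and Bmp2 next to it, among lines of genes of like signal.

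Differences between members do not depend on a single scaling factor. The log2 ratio of Ihh was below that of Id2 by 0.77 ± 0.29 (scanner software's error), below that of Id1 by 0.70 ± 0.29, below that of Id3 by 0.65 ± 0.29 and below that of Bmp2 by 0.60 ± 0.29. The largest difference among Id1, Id2, Id3 and Bmp2 was 0.17 ± 0.29, between Id2 and Bmp2, which is less than its error. The hedgehog ligand and these 4 genes therefore had ratios further apart than the error of the spots, while the 4 genes themselves could not be told apart.

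**Figure D3:**
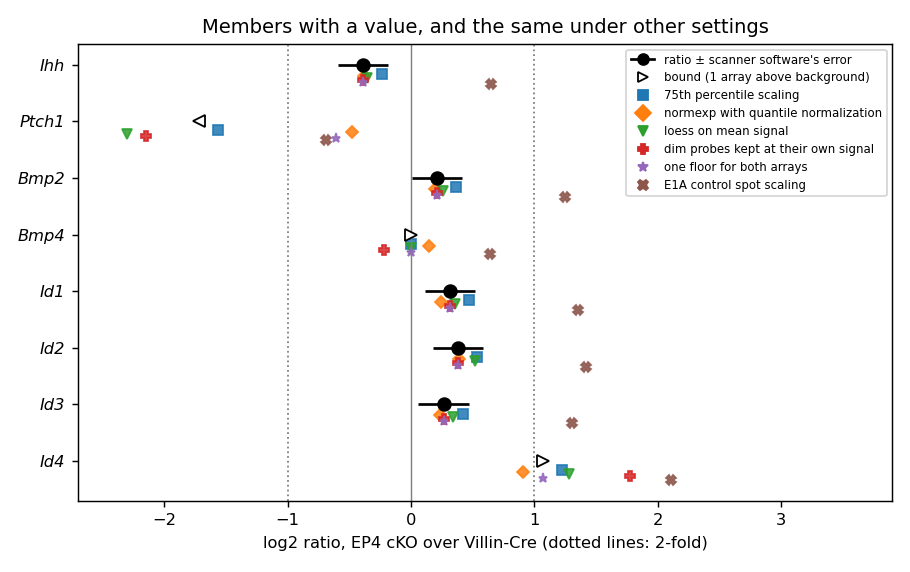
Log2 ratio of EP4 cKO over Villin-Cre for the 8 members with a value (black circles with the scanner software's error, open triangles for bounds) and the same under 6 other settings (colored symbols). Id1, Id2 and Id3 stay above 0 in each, Ptch1 stays below 0 but crosses the 2-fold line, and Ihh stays below 0 except with E1A control spot scaling, at 0.65.

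Promoter sequence is shown for the ligand and for Id2, Id3 and Id4, since their ratios had opposite signs with the scaling used here. RefSeq promoters (GRCm38.p6) were found for 7 of the members (Ihh, Ptch1, Hhip, Bmp4, Id2, Id3 and Id4). The 250 bases before the annotated start are printed 5′ to 3′ on the strand of the gene, at chr1:74951673-74951922 (minus strand) for Ihh, chr12:25096093-25096342 (minus strand) for Id2, chr4:136143572-136143821 (plus strand) for Id3 and chr13:48260866-48261115 (plus strand) for Id4. Capitals mark matches, on either strand, to TGACG, the core of the cAMP response element, or to GGCGCC, a GC-rich element that Smad proteins bind. EP4 raises cAMP, and Smads carry the BMP signal, which is why these motifs were searched.
Ihh: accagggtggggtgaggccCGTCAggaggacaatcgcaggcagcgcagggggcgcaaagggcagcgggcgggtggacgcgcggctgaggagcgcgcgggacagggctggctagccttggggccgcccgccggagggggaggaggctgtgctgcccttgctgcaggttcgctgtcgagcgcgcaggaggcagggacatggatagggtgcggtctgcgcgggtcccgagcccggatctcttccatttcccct
Id2: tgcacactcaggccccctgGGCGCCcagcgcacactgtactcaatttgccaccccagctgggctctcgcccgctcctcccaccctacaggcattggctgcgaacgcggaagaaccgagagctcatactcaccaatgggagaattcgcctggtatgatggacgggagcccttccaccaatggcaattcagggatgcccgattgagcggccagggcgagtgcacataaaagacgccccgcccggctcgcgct
Id3: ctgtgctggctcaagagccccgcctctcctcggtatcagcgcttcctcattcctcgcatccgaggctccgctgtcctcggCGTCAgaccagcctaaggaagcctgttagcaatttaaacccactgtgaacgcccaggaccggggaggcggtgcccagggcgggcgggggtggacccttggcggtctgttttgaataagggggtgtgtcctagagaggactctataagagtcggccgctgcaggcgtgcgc
Id4: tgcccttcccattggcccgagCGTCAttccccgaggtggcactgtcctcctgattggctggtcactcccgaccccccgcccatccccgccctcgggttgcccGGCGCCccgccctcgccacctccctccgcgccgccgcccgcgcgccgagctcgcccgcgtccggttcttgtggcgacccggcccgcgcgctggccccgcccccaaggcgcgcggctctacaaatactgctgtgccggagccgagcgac
TGACG was in the windows of Ihh, Id3, Id4 and Hhip, which is 4 of 7 members, and in 17.8% of all 32851 promoters. In Hhip it formed the full element TGACGTCA, 75 to 68 bases before the start, which 1.55% of promoters hold and in which the core is counted once on each strand. GGCGCC was in the windows of Id2, Id4 and Ptch1, 3 of 7 members, and in 9.59% of all promoters. The windows of the 7 members were 62.8% to 78.4% G and C, against a median of 52.4% over all promoters, so the shares do not compare like with like. The Gli motif GACCACCCA was in none of the 7 windows and in 0.225% of promoters. The genes with TGACG thus included Ihh, which was lower with the scaling used here, and Id3 and Id4, which were higher. A match is only a run of letters in this window and does not show binding.

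The other hedgehog genes were described by 4 lists with 31 genes in all, members included, of which 12 had a value. None was more than 2-fold higher on the EP4 cKO array and 3 were more than 2-fold lower (Ptch1, Boc and Sufu). Over all genes the shares were 4.89% and 7.98%. The call of Ptch1 is set by the unequal floors, and when both arrays shared a floor 2 of these genes were lower. These 12 genes had a median log2 ratio of -0.47, against -0.10 over all genes. Dim genes had lower ratios, with a median of -0.40 in signal bin 1 of 10 and -0.02 in bin 10. Neither this list nor the lists below were set against genes of like signal. Boc, a co-receptor for hedgehog, had 586 in Villin-Cre and 172 in EP4 cKO (log2 ratio -1.77). Sufu, the inhibitor that holds Gli factors in the cytoplasm, had 475 and 215 (-1.14). After normexp with quantile normalization no gene of these lists was lower by more than 2-fold, with -0.91 for Boc and -0.46 for Sufu.

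Among the other receptors, Cdon, a co-receptor related to Boc, had 2626 and 1529 with its brightest probe (log2 ratio -0.78), while a second probe had 1543 in Villin-Cre and 22.2 in EP4 cKO, where it was not well above background (-4.74 as a bound). Another probe, measured on the EP4 cKO array only, had 125 and 122 and gave no fold above 1. The probes of Cdon therefore disagreed. Smo, the transducer that Ptch1 restrains, had 5050 and 3588 (-0.49). Of the genes of ligand release, Disp1, which frees hedgehog from the cell that makes it, had 430 and 219 (-0.97), Hhat, which attaches a lipid to it, had 1291 and 1284 (-0.01) but 474 and 262 (-0.85) with a dimmer probe, and Disp2 had 190 and 291 (0.61). Spop, a ubiquitin ligase adaptor for Gli factors, had 13638 and 10069 (-0.44), and Stk36, a kinase of the pathway, had 186 and 176 (-0.08). Thus 10 of the 12 genes with a value had a ratio below 0 and Disp2 alone had a ratio above 0. The median of all genes was itself below 0 (-0.10). The count also depends on the scaling. Hhat (0.15) and Stk36 (0.08) were above 0 with the 75th percentile, and the E1A control spots raised the ratio of each gene measured on both arrays by 1.04. Gli2, Gli3 and Shh were not well above background on either array, nor were any of the 6 stromal transcription factors of the pathway, Foxf1, Foxf2, Foxl1, Osr1, Nkx2-3 and Tcf21.

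The BMP lists held 60 genes, of which 38 had a value, with 1 more than 2-fold higher, 8 more than 2-fold lower and a median log2 ratio of -0.19. Over all genes with a value, 4.89% were higher and 7.98% lower by more than 2-fold, and the median was -0.10. With scaling to the E1A control spots the 2 BMP genes still more than 2-fold lower were Bmp3 (-1.96) and Fstl1 (-2.96 as a bound). Of the 14 ligands 7 had a value. The largest difference was that of Bmp3, an atypical member of the family that opposes other BMPs: 1118 in Villin-Cre and 140 in EP4 cKO (log2 ratio -2.99, 7.97-fold lower) with one probe, and 844 and 180 (-2.23) with the other. Bmp3 stayed more than 2-fold lower in each setting tried, with ratios of -2.99 to -1.75. Bmp8b was well above background on the EP4 cKO array only, with 87.2 and 256 (1.03 as a bound, and 0.81 after normexp with quantile normalization). Its relative Bmp8a had 1361 and 1444 (0.09), and Gdf5 had 160 and 183 (0.19).

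Of 11 BMP receptors and co-receptors 8 had a value, all on both arrays, and 3 were more than 2-fold lower. Rgma, a membrane co-receptor, had 2667 and 1160 (log2 ratio -1.20) with its brighter probe but 711 and 939 (0.40) with the dimmer one, so that its probes opposed each other. Rgmb, its relative, had 216 and 99.6 (-1.12) and 169 and 105 (-0.69). Acvr2b, a type II receptor shared with activins, had 2729 and 1307 (-1.06). After normexp with quantile normalization these 3 genes were within 2-fold (-0.92, -0.11 and -0.86). The type I receptor Bmpr1a had 2911 and 2915 (0.00), the type II receptor Bmpr2 4396 and 3172 (-0.47), and Acvrl1, a type I receptor best known from endothelium, 972 and 641 (-0.60).

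Of 15 secreted or membrane antagonists 7 had a value, 2 were more than 2-fold lower and 6 had a ratio below 0. The last count depends on the scaling. With the E1A control spots Nog (0.23), Bambi (0.30), Fstl3 (0.35) and Twsg1 (0.82) were above 0, and Fstl1 (-2.96) and Nbl1 (-0.10) stayed below. Fstl1, a follistatin-like glycoprotein of mesenchymal cells, had 925 and 12.1 with one probe and 606 and 12.4 with the other, at the level of the negative controls on the EP4 cKO array (log2 ratio -3.39 as a bound with the dimmer probe). Beside this stand the fibroblast markers, with the scaling used here 6 of 8 more than 2-fold lower and Fn1 (0.98) and Thy1 (0.29) above 0. The part of fibroblasts in the Fstl1 difference was not tested. Nbl1, the DAN antagonist, had 10666 and 4863 (-1.13, and -0.98 with scaling to the 75th percentile). Nog, noggin, had 545 and 311 (-0.81), Bambi, a receptor without a kinase domain that damps BMP signals, 2329 and 1397 (-0.74), and Fstl3 381 and 238 (-0.68). Grem1, a gremlin of the crypt base stroma, was well above background on neither array.

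**Figure D4:**
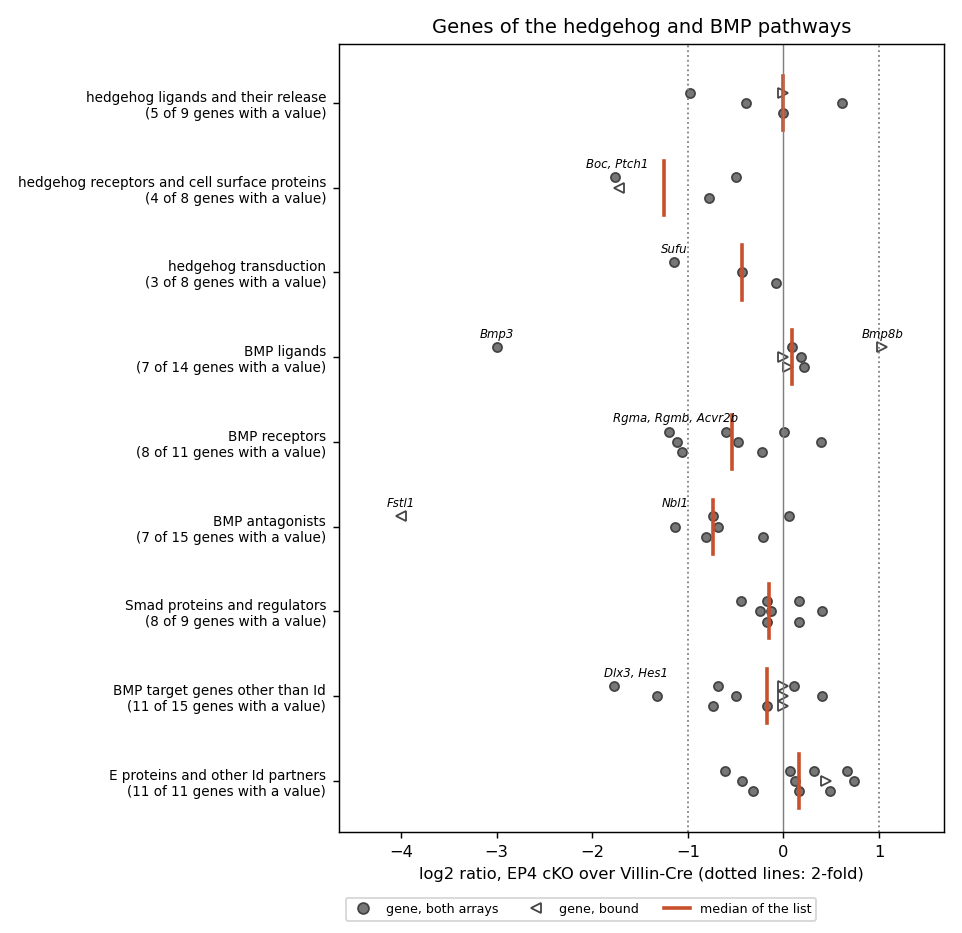
Log2 ratio of EP4 cKO over Villin-Cre for each gene with a value in 9 lists of the hedgehog and BMP pathways (filled circles, measured on both arrays; open triangles, bounds; red bars, medians; dotted lines, 2-fold). With the scaling used here the receptor and antagonist lists lie mostly left of 0 (the E1A control spots would move filled circles right by 1.04), and the Smad list and the Id partners lie within 2-fold.

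The Smad proteins and their regulators lay within 2-fold in all 8 cases with a value by the brightest probe, with log2 ratios from -0.44 to 0.40 and a median of -0.16. Smad1, which carries the BMP signal, had 16700 and 18665 (0.16), Smad5, its partner, 7412 and 5454 (-0.44), and the shared Smad4 28310 and 31682 (0.16). The inhibitory Smads are themselves BMP targets: Smad7 had 2143 and 2824 (0.40) and Smad6 675 and 597 (-0.18). A dimmer probe of Ppm1a, a phosphatase of Smads, was past 2-fold with 950 and 456 (-1.06), while its brighter probe had 1586 and 1336 (-0.25).

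Of 15 BMP target genes other than Id, 11 had a value, with a median log2 ratio of -0.18 (-0.59 over the 8 measured on both arrays, against -0.15 over all such genes), and the 2 that were more than 2-fold lower were Dlx3 and Hes1. Dlx3, a homeobox factor, had 24532 in Villin-Cre and 7174 in EP4 cKO (-1.77, and -0.74 with scaling to the E1A control spots), and Hes1, a bHLH repressor best known as a Notch target, had 2170 and 869 (-1.32, -0.94 after normexp with quantile normalization and -0.28 with the E1A control spots). Atoh8 (-0.68), Bambi (-0.74) and Msx2 (-0.50) were within 2-fold. With the scaling used here Smad7 (0.40) and Runx1 (0.11) had ratios above 0, as Id1 to Id3 did, and 6 targets had ratios below 0. The other 3, Hey1, Msx1 and Runx2, were measured on the EP4 cKO array only and gave no fold above 1, so that their ratio of 0 is set by the floor. Their signals were 29.3 and 68.1 for Hey1, 89.8 and 72.3 for Msx1 and 26.8 and 69.5 for Runx2.

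The partners of Id proteins were within 2-fold in all 11 cases by the brightest probe, with a median log2 ratio of 0.17. Of the E proteins, which Id proteins sequester, Tcf3 had 1179 and 1324 (0.17), Tcf4 5456 and 5733 (0.07) and Tcf12 1208 and 1507 (0.32). Some dimmer probes of these genes had ratios below 0, with -0.74 for Tcf3, -0.54 and -1.56 for Tcf4 and, for one probe of Tcf12 that was well above background on the Villin-Cre array only, a bound of -3.69. Pax2 (0.74) and Pax8 (0.67) had the highest ratios among the other partners, and Elk4 (-0.61) the lowest.

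The markers of the cells that make or receive these signals had uneven ratios. Krt20, a keratin of surface epithelium, had 146575 and 510711 (log2 ratio 1.80), and Aqp8, a water channel of surface colonocytes, had 236302 and 473610 (1.003). Among 9 surface colonocyte markers with a value the median was 0.41, 2 passed 2-fold upward (Krt20 and Aqp8) and 0 downward. Of the 9, 3 had ratios below 0: Guca2a, the precursor of guanylin, with 231994 and 137675 (-0.75), Car1 with 105597 and 78868 (-0.42) and Slc20a1 with 40437 and 31869 (-0.34). In the smooth muscle list 7 of 10 had a value, with Acta2 at 18006 and 27719 (0.62), Actg2 at 7308 and 12072 (0.72), Smtn at 2859 and 1904 (-0.59) and Cnn1 at 479 and 72.3 (-2.73), and the summed signal was 35462 and 52018. In the endothelial list 3 of 10 had a value, with Vwf at 873 and 914 (0.07), Egfl7 at 330 and 244 (-0.43), Pecam1 at 172 and 152 (-0.18) and summed signals of 1375 and 1311. In the list of enteric neurons and glia 4 of 10 had a value, 2 of them (Uchl1 and Elavl3) more than 2-fold lower, with summed signals of 3930 and 1931. Elavl3, measured on the Villin-Cre array only (147 and 38.5, -1.35 as a bound), was within 2-fold with one floor for both arrays (-0.23) and after normexp with quantile normalization (-0.45). With scaling to the E1A control spots Uchl1 (-0.39) and Elavl3 (-0.31) were both within 2-fold. Of the leukocyte markers 8 of 11 had a value, with summed signals of 64782 and 83443 and a median log2 ratio of 0.09. Most of that sum was Itgam, with 49347 and 68598 (0.48). A dimmer Itgam probe, well above background on the EP4 cKO array only, had 145 and 84.1 and gave no fold above 1. Ptprc had 416 and 813 (0.97). Itgax had 152 and 505 (1.73), Csf1r 4874 and 2817 (-0.79) and Cd3e 3069 and 2861 (-0.10). The part of these cells in the values of Ihh, Bmp2 and the Id genes was not tested.

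**Figure D5:**
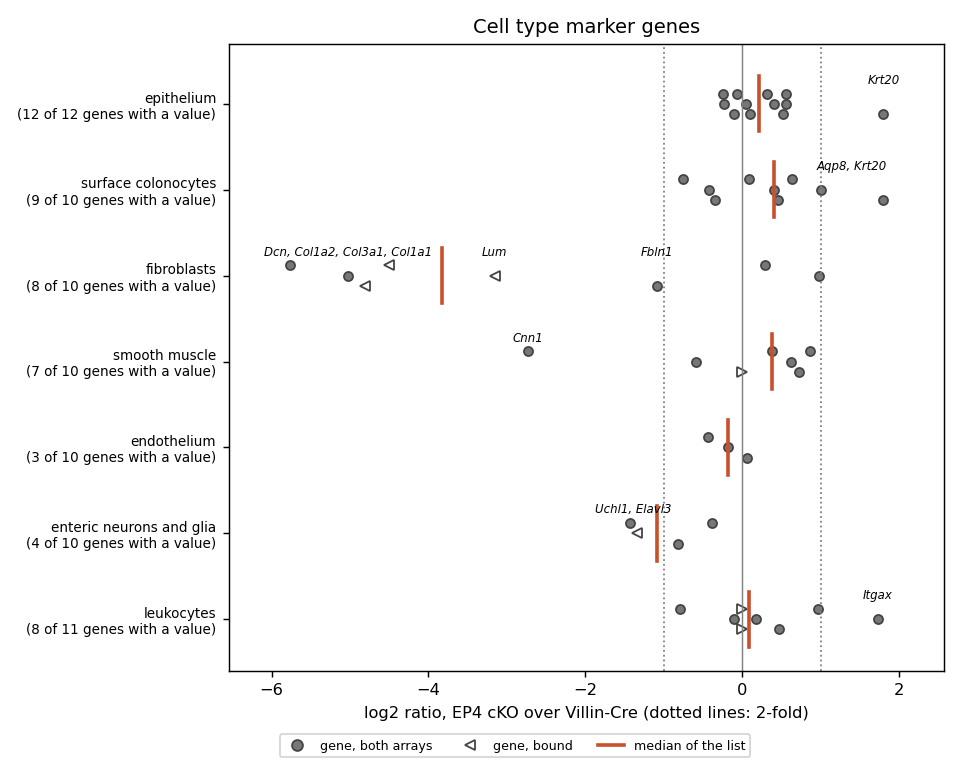
Log2 ratio of EP4 cKO over Villin-Cre for marker genes of 7 cell types (filled circles, measured on both arrays; open triangles, bounds; red bars, medians; dotted lines, 2-fold). Of 12 epithelial markers 8 lie above 0 and 4 below, between -0.25 and 0.56 apart from Krt20 (1.80), and 6 of 8 fibroblast markers lie left of the 2-fold line.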

How the data were processed

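The authors hybridized Cy3-labelled RNA to Agilent SurePrint G3 mouse arrays and deposited the scanner output, 1 file per genotype. Per the file headers the intensity of each spot was background-subtracted and detrended by Feature Extraction 12.0.3.1 (11.5.1.1 in the submitters' processing notes). The error of each intensity and the flags were used as deposited. No spot was saturated.

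Spots of control probes and spots flagged as outliers on either array (147 and 126) were left out, leaving 56593 gene probes, of which the software marked 25683 (Villin-Cre) and 29177 (EP4 cKO) as well above background. As in the study's methods, each array was scaled to a trimmed mean of 2500 without 2% of the probes at each end (factors 3.45 and 2.68). RefSeq accessions were matched without version to GRCm38.p6 genes, 32984 probes (58.3%). An accession shared by several symbols was not used. A gene is represented by its brightest probe with a value. The grid of the array refers to an older assembly, so only RefSeq promoters are given coordinates.

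No test was possible with 1 array per genotype, and the number of arrays limits the precision. Over 163 probes spotted 10 times and measured on both arrays, the median SD of the log2 ratio was 0.034, within 1 hybridization. The members and lists were chosen with earlier results of these data known. Named are all members, up to 5 genes per list with the largest ratios, all genes past 2-fold where 8 or fewer were (5 or fewer in marker lists), and up to 4 of the brightest markers; any other gene was chosen with its values in view.

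Alternatives were scaling to the 75th percentile, normexp (offset 50, on median signals) with quantile normalization, loess (span 0.3), other filters on dim probes, the mean of all probes and thresholds of 1.5-fold and 3-fold. Once the data had been seen, scaling to E1A control spots (8 probes) and one floor for both arrays were tried too. Scaling, ratios and counts were checked on simulated arrays. Python 3.11.15, numpy 2.4.6, pandas 2.3.3, statsmodels 0.14.6, matplotlib 3.10.9, R 4.3.3 and limma 3.58.1 were used.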

Additional observations from a re-analysis of the deposited data

How the results depend on the processing

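Counts are of genes more than 2-fold higher or lower on the EP4 cKO array. With the settings used in the report 717 genes were higher and 1171 lower, and other scalings shifted this split, to 942 and 921 (75th percentile), 916 and 886 (loess) and 615 and 391 (normexp with quantile normalization). The median of all genes was raised from -0.10 to 0.00 by each of these, and to 0.87 by scaling to the E1A control spots, whose own scaled log2 ratio was -1.04.

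After normexp with quantile normalization 0 members were higher and 0 lower, 0 hedgehog genes were lower, and 0 BMP genes were higher and 4 lower. With only genes well above background on both arrays 0 members and 0 BMP genes were higher and 0 members lower, since Id4, Ptch1 and Bmp8b then have no value. When dim probes entered with their measured signals, 2 members, 19 hedgehog genes, 27 BMP genes and 7252 of all genes were lower, 3 BMP genes and 1172 of all genes were higher, and the median of the members was 0.028. With scaling to the E1A control spots 5 members, 2 hedgehog genes, 12 BMP genes and 5745 of all genes were higher, 0 members, 0 hedgehog genes, 2 BMP genes and 338 of all genes were lower, and the median of the members was 1.27. The median was 0.39 with scaling to the 75th percentile, where 5 BMP genes were lower, and 0.30 after loess. With one floor for both arrays 0 members, 2 hedgehog genes and 1021 of all genes were lower. At 1.5-fold 1447 of all genes and 1 hedgehog gene were higher, and 2740 of all genes, 5 hedgehog genes and 13 BMP genes were lower. At 3-fold 325 of all genes, 0 members and 0 BMP genes were higher, and 548 of all genes and 3 BMP genes were lower. Beyond the construction of each setting, the cause was not tested.

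Of the members' single probes, 41 values under other settings moved by less than the scanner software's error and 12 by more, of which 8 were with the E1A control spots. The 41 include values that a setting leaves unchanged, such as those of bright probes under the filters on dim probes. No paired analysis was possible because each genotype had 1 array. Signal over background limits Ptch1, Bmp4, Id4, Gli1 and Hhip.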

Other observations

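The neighboring TGF-beta and activin branch was looked at after the data had been seen. Of 12 ligands 4 had a value, and 1 was more than 2-fold lower: Gdf15, a stress-induced member of the family, had 6066 in Villin-Cre and 1661 in EP4 cKO (log2 ratio -1.87). With scaling to the E1A control spots Gdf15 was within 2-fold (-0.83). Lefty1, an inhibitor of nodal signaling, had 1091 and 1280 (0.23). Inhba, Inhbb, Tgfb2 and Tgfb3 were well above background on neither array. Of 14 receptors, Smads and corepressors 13 had a value, with a median log2 ratio of 0.01 and, by the brightest probe, Acvr2b alone past 2-fold (-1.06). Acvr2b was within 2-fold with scaling to the 75th percentile (-0.90), after normexp with quantile normalization (-0.86) and with the E1A control spots (-0.03). A dimmer probe of Skil had 283 and 120 (-1.24). Next in size were Acvr1c with 739 and 394 (-0.91), Tgif1 with 7733 and 5088 (-0.60) and Tgif2 with 539 and 719 (0.42). Tgfbr1, a type I receptor, had 1005 and 1263 (0.33), Tgfbr2, the type II receptor, 7046 and 5424 (-0.38), and Smad3 6660 and 6584 (-0.02).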
